A study of Homo sapiens with 2 samples.

Results

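The genes of the aminoacyl-tRNA synthetases were examined in HSC-1 cells after knockdown of the long noncoding RNA LINP1. The members were the 36 genes of a fixed list of symbols, 20 for cytosolic and 16 for mitochondrial enzymes, out of 44591 genes in the count table. The rule for membership used no measured value. All 36 were found, and all 36 had at least 10 reads summed over both libraries. The table uses symbols that predate a renaming, so AARS, for instance, is now AARS1.

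Aminoacyl-tRNA synthetases attach each amino acid to its matching tRNA, the step that fixes the genetic code before the ribosome is reached. Cytosolic enzymes serve the translation of nuclear mRNAs, and a separate set of nuclear-encoded enzymes is imported into mitochondria to serve the mRNAs of mitochondrial DNA. GARS and KARS each encode both forms. Several cytosolic enzymes are held in the multi-synthetase complex. Transcription of many cytosolic enzymes is known to be raised by ATF4, the factor whose translation increases when eIF2α is phosphorylated during unfolded protein response (UPR) or amino acid shortage. The study sequenced these cells to find the genes that respond to loss of LINP1, and its further experiments dealt with eIF2α and UPR.

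HSC-1 is an established line from a cutaneous squamous cell carcinoma (cSCC), grown in DMEM with 10% serum. One culture received control siRNA (siNC) and the other siRNA against LINP1 (siLINP1), per the labels at about 70% confluency. Per the labels, both were kept 6 h without serum and 24 h more in serum before total RNA was taken. The paper's general methods for transfection give another confluency and another time before RNA was taken. Each condition had 1 library, so no difference below has a replicate check, no p-value is given, and every interval covers counting error only.

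The siNC library held 18829544 counted reads and the siLINP1 library 15383081. The read numbers below are raw, and ratios between the libraries are corrected with size factors of 1.08 and 0.930. A log2 fold change always compares siLINP1 with siNC. The target LINP1 was read 167 times in siNC and 23 times in siLINP1, with a log2 fold change of -2.65 (-3.35 to -2.02, a 95% interval). Of the epithelial markers, KRT5 had 32 and 24 reads, TP63 had 6 and 8, and DSG3 had 5 and 5. CDH1 had 14 and 3 reads, EPCAM had 12 and 8, and KRT14 had 243 and 87. Of the mesenchymal markers, VIM had 61097 and 41992 reads, FN1 had 1151 and 753, and COL1A1 had 190 and 79. The epithelial markers were thus near 0 in both libraries apart from KRT14. For KRT5, TP63, DSG3 and CDH1 this went against what the label of the line would lead one to look for. In bulk RNA, fewer cells of a kind and less RNA per cell cannot be told apart.

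The cytosolic genes were read far more than the mitochondrial ones. On the RPKM scale, which divides reads by gene length and library total, the cytosolic genes ran from 14.8 to 213 in siNC with a median of 66.1, and from 14.9 to 216 in siLINP1 with a median of 74.5. The mitochondrial genes ran from 3.36 to 54.6 with a median of 11.5 in siNC, and from 4.35 to 49.2 with a median of 11.6 in siLINP1. FARSA, the alpha subunit of phenylalanyl-tRNA synthetase, was the highest member in both libraries at 213 and 216 RPKM. FARSB, the beta subunit of the same enzyme, stood at the other end of the cytosolic order with 14.8 and 20.5 RPKM, next to the aspartyl enzyme DARS with 17.1 and 14.9. The alanyl enzyme AARS was second at 162 and 192 RPKM.

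A band of cytosolic genes could not be ordered. In siNC, 8 of the 19 neighbouring pairs had overlapping counting intervals, among them the run from RARS through IARS, NARS and EPRS to WARS, all between 63.7 and 67.2 RPKM. In siLINP1, where 9 of the 19 pairs overlapped, WARS at 82.7 and IARS at 80.2 RPKM could not be told apart, nor could RARS at 68.4 and EPRS at 65.4. Among mitochondrial genes the isoleucyl enzyme IARS2 led with 54.6 and 49.2 RPKM, before the cysteinyl enzyme CARS2 with 44.9 and 45.2, and in siLINP1 their intervals overlapped. The phenylalanyl enzyme FARS2 was last in both libraries with 3.36 and 4.35 RPKM, and in siLINP1 its interval overlapped that of WARS2. SARS2 stood at rank 4 of 16 in siNC, with an interval that overlapped those of TARS2 and HARS2, and at rank 6 in siLINP1. VARS2 stood at rank 7 in siNC and at rank 12 in siLINP1, where its interval overlapped those of MARS2 and AARS2.

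**Figure D1:**
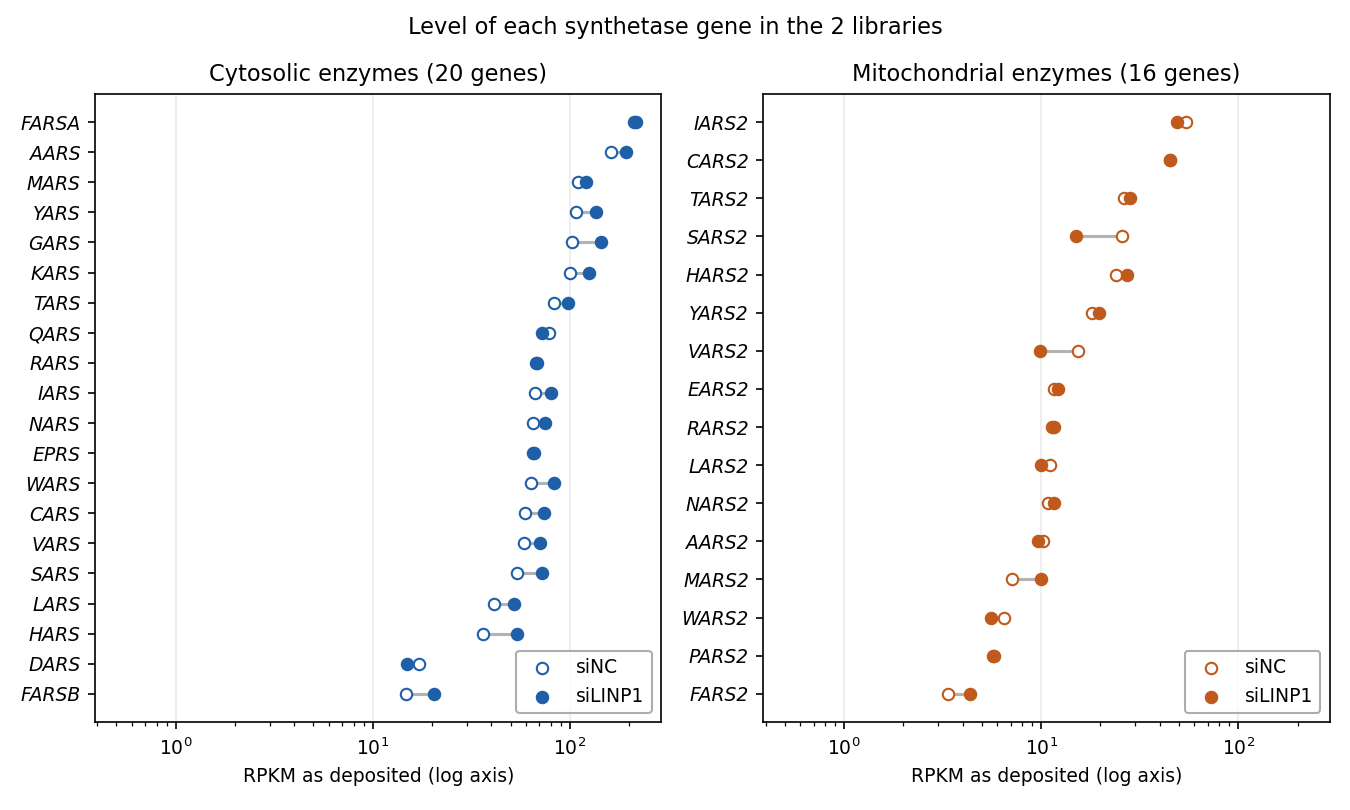
Level of each synthetase gene as deposited RPKM on a log axis, with open circles for the siNC library and filled circles for the siLINP1 library, 20 cytosolic genes on the left and 16 mitochondrial genes on the right. Most filled circles of cytosolic genes lie to the right of the open ones, whereas SARS2 and VARS2 lie clearly to the left. RPKM divides by the library total, so it places siLINP1 higher by 0.082 on the log2 scale than the size factors do.

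Most cytosolic enzymes had slightly higher values in the siLINP1 library. Their median log2 fold change was 0.18, and single genes lay between -0.27 and 0.49. The 10855 genes whose summed reads fall in the members' range of 284 to 20108 had a median of -0.025. Of the 20 genes, 15 were higher and 5 lower, beside 47.0% of those 10855 genes above 0 and 53.0% below. The counting interval lay wholly above 0 for 15 and wholly below 0 for 4. Of those 4, EPRS and FARSA hang on the scaling. Their upper bounds of -0.023 and -0.011 are smaller in size than the 0.027 by which TMM scaling shifts every gene upward. Of the 4931 genes read as deeply as the cytosolic members (1587 to 20108 reads), 32.4% had an interval above 0. The share with one below 0 was not computed for that range. Scaling by total count instead gave 18 higher and 2 lower cytosolic genes.

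These differences were small. More than 1.2-fold, 6 cytosolic genes were higher and 1 was lower, beside 21.8% and 24.2% of genes in the members' read range and 27.8% and 30.3% of the 19840 genes with at least 10 reads. More than 1.5-fold, no cytosolic gene differed in either direction, beside 7.31% higher and 5.15% lower in the read range and 14.4% and 13.0% of the 19840 genes. The counts past 1.2-fold depend on the scaling, and with total-count or TMM scaling 9 genes were higher and 0 lower.

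HARS, the histidyl enzyme, had the highest log2 fold change of the 36 genes. It had 1582 reads in siNC and 1921 in siLINP1, or 36.4 and 54.2 RPKM. The log2 fold change was 0.49 (0.39 to 0.59). GARS, the glycyl enzyme of both compartments, had 5002 and 5735 reads (0.41, 0.35 to 0.46). The seryl enzyme SARS had 5017 and 5507 reads (0.34, 0.29 to 0.40). For HARS, GARS and SARS the whole interval lay past 1.2-fold higher. In the read range, 10.0% of genes had a larger log2 fold change than HARS and 13.4% a larger one than GARS.

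FARSB had 745 and 842 reads (0.39, 0.24 to 0.53). WARS, the tryptophanyl enzyme that is also known as an interferon-inducible gene, had 3558 and 3778 reads (0.30, 0.23 to 0.36). The leucyl enzyme LARS, which also serves as a leucine sensor for mTORC1, had 3797 and 3947 reads (0.27, 0.20 to 0.33). FARSB, WARS and LARS lay past 1.2-fold by their point value, with intervals that reached below it. The tyrosyl enzyme YARS followed with 6304 and 6480 reads (0.25), then KARS, the lysyl enzyme, with 4131 and 4238 (0.25), and the cysteinyl enzyme CARS with 3151 and 3213 (0.24).

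IARS (isoleucine), VARS (valine), AARS, TARS (threonine) and NARS (asparagine) had log2 fold changes between 0.12 and 0.18, all with intervals above 0. With the GC trend removed NARS was at 0.025, TARS at 0.067, IARS at 0.10 and VARS at 0.34, and LARS, above, at 0.17. AARS had 10231 and 9877 reads, which after scaling was 0.16 (0.12 to 0.20). NARS had 3529 and 3314 reads (0.12, 0.050 to 0.19). MARS, the methionyl enzyme, had 6044 and 5426 reads, and its interval of 0.00069 to 0.11 around 0.054 barely cleared 0.

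The cytosolic genes on the lower side were few. DARS had 1015 and 726 reads (-0.27, -0.41 to -0.14), and QARS, the glutaminyl enzyme, had 4160 and 3127 reads (-0.20, -0.27 to -0.14). EPRS, a single protein that charges both glutamate and proline tRNAs, had 6154 and 5046 reads (-0.077, -0.13 to -0.023). FARSA had 7416 and 6151 reads (-0.060, -0.11 to -0.011), and the arginyl enzyme RARS had 2707 and 2251 (-0.057, -0.14 to 0.025). The signs of EPRS, FARSA and RARS hang on the scaling, since total-count scaling put them at 0.0053, 0.022 and 0.026. DARS and QARS were lower under each scaling tried, QARS at -0.12 with total-count scaling. With the GC trend removed EPRS was at -0.17 and RARS at -0.15.

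**Figure D2:**
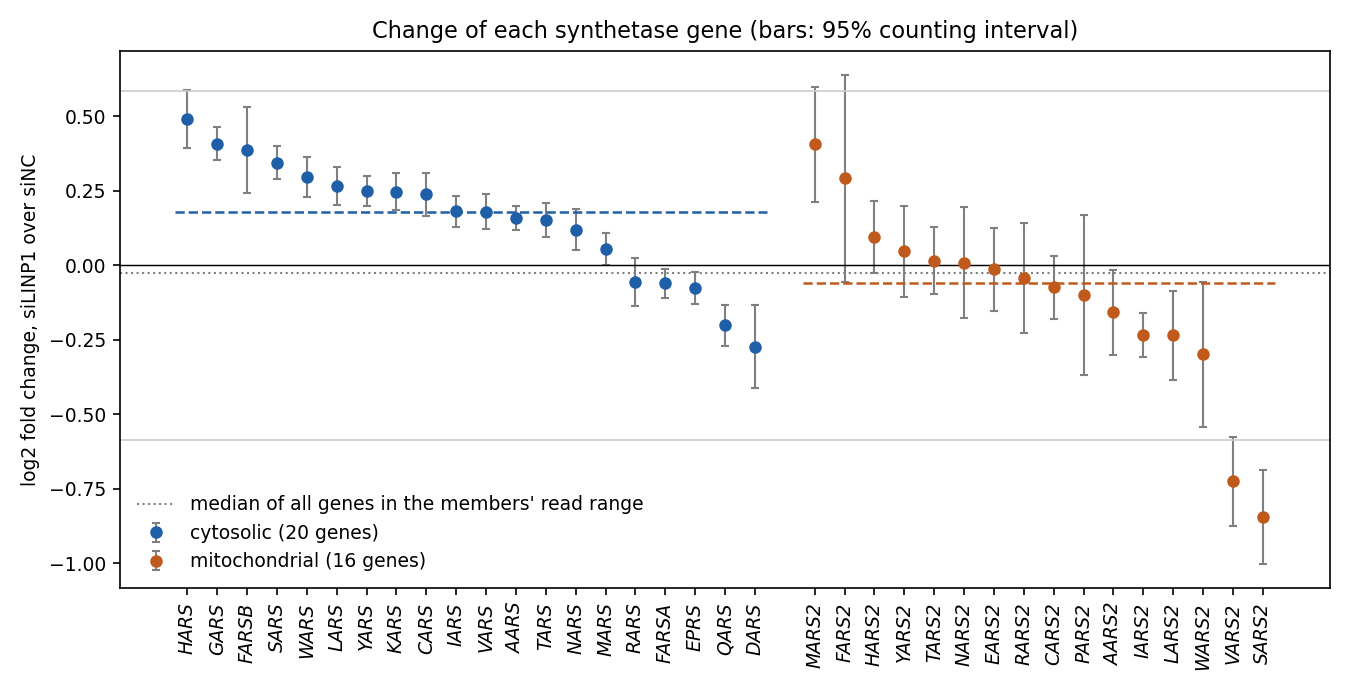
Log2 fold change of each synthetase gene, siLINP1 over siNC, ordered within each compartment, with bars for the 95% counting interval and a dashed line for the median of each compartment. The dotted line is the median of all genes in the members' read range (-0.025), and the grey lines mark 1.5-fold. The cytosolic median of 0.18 lies above the dotted line, the mitochondrial median of -0.058 just below it, and SARS2 and VARS2 are the 2 points past the lower grey line.

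Mitochondrial enzymes had values on both sides of 0. Their median log2 fold change was -0.058, near the median of -0.025 of all genes in the read range, and 6 of the 16 were higher and 10 lower. With total-count scaling 9 were higher and 7 lower, and the median was 0.024. The interval lay above 0 for 1 of the 16 and below 0 for 6. One of the 6, AARS2, had an upper bound of -0.015, smaller in size than the TMM shift of 0.027. Of the 10106 genes with 284 to 6334 reads, 33.7% had one below 0, a share close to that of the members. The share with one above 0 was not computed for that range. More than 1.2-fold, 2 were higher and 3 lower, or 2 to 4 lower over the alternatives, beside 21.8% and 24.2% of genes in the members' read range. No mitochondrial gene was more than 1.5-fold higher and 2 were more than 1.5-fold lower, against the 7.31% and 5.15% given above.

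Those 2 were SARS2 and VARS2. SARS2, the mitochondrial seryl enzyme, had 1029 reads in siNC and 496 in siLINP1, or 25.6 and 15.1 RPKM. Its log2 fold change of -0.84 (-1.0 to -0.69) was the lowest of all 36, with the whole interval past 1.5-fold, and 1.23% of genes in the read range had a lower one. VARS2, the mitochondrial valyl enzyme, had 1085 and 568 reads, or 15.4 and 9.89 RPKM. Its log2 fold change was -0.72 (-0.87 to -0.58), with 2.38% of genes lower. Their canonical GENCODE transcripts are GC-rich, at 61.4% and 59.9%, where the 16 mitochondrial genes had a median of 50.4% and genes with at least 100 reads one of 48.3%. With the trend of fold change with GC content removed, SARS2 stood at -0.69 and VARS2 at -0.59, still the 2 lowest members. SARS2 was still past 1.5-fold, and VARS2 only just. The counting interval of VARS2 reached inside 1.5-fold even before that removal. The part of GC content in the remaining difference was not tested.

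WARS2 (tryptophan) had 344 and 242 reads (-0.30, -0.54 to -0.057). LARS2 (leucine) had 879 and 646 reads (-0.23, -0.38 to -0.087), and IARS2 had 3650 and 2684 (-0.23, -0.31 to -0.16). AARS2 (alanine) had 916 and 710 reads (-0.16, -0.30 to -0.015), or -0.054 with the GC trend removed. These 4 genes complete the 6 whose interval was below 0.

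On the upper side stood MARS2, the mitochondrial methionyl enzyme, with 414 reads in siNC and 474 in siLINP1. Its log2 fold change of 0.40 (0.21 to 0.60) was the single mitochondrial value whose interval was above 0. FARS2 had only 138 and 146 reads, and its interval of -0.055 to 0.64 around 0.29 is too wide to give a direction. The intervals of HARS2, YARS2, TARS2, NARS2, EARS2, RARS2, CARS2 and PARS2 also spanned 0, with log2 fold changes between -0.10 and 0.095. With the size factors used no difference was detectable for them. For HARS2 this hangs on the scaling, since its lower bound of -0.025 is smaller in size than the TMM shift of 0.027 upward. The lower bound of FARS2 is likewise smaller in size than the 0.082 of total-count scaling. HARS2 had 1181 and 1091 reads, TARS2 had 1389 and 1214, CARS2 had 1614 and 1326, and PARS2 had 259 and 209.

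The compartments were also compared by their summed reads. The cytosolic genes together held 4791 of every 1000000 counted reads in siNC (95% Poisson interval 4759 to 4822) and 5644 in siLINP1 (5607 to 5682). The mitochondrial genes together held 829 (816 to 842) and 790.0 (776 to 804). Without SARS2 and VARS2 the other 14 mitochondrial genes held 717 (705 to 729) and 721 (707 to 734), with overlapping intervals. Per 1000000 counted reads, the mitochondrial total was thus not lower once those 2 genes, chosen for their low values, were set aside. Single genes among the other 14 still differed on that scale. IARS2 was lower at 54.6 and 49.2 RPKM and MARS2 higher at 7.12 and 9.98. The near-equal totals of the 14 hold for that scale only, since it sets siLINP1 0.082 higher in log2 than the size factors do. Under the size factors 6 of the 14 were higher and 8 lower, around a median of -0.028. The share of SARS2 and VARS2 in the summed difference was not computed under the size factors. The ratio of cytosolic to mitochondrial reads was 5.78 in siNC and 7.14 in siLINP1, a log2 ratio of ratios of 0.31 (0.27 to 0.34) in which the scaling cancels. Without SARS2 and VARS2, left out after their values were seen, it was 0.23 (0.19 to 0.27). The medians of the compartments differed by 0.24 on the log2 scale. These are differences between 1 library and another, and how far a second pair of cultures would repeat them was not tested.

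The same question was asked within each amino acid, by subtracting the log2 fold change of the mitochondrial enzyme from that of its cytosolic counterpart. For 16 amino acids there were 17 such pairs, since EPRS serves in 2 of them and phenylalanine has both FARSA and FARSB. The cytosolic enzyme had the larger log2 fold change in 13 of the 17, and the interval of the difference lay above 0 in 10, below 0 in 2 and across 0 in 5. No share over pairs of other genes was computed to set beside these counts, and the intervals cover counting error only. The widest differences were 1.19 (1.02 to 1.35) for serine and 0.90 (0.75 to 1.06) for valine. Tryptophan (0.59, 0.35 to 0.84), leucine (0.50, 0.34 to 0.66), isoleucine (0.41, 0.33 to 0.50) and histidine (0.39, 0.24 to 0.55) followed.

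Methionine went the other way. MARS minus MARS2 was -0.35 (-0.55 to -0.15), and FARSA minus FARS2 was -0.35 (-0.69 to -0.012). With the reads of FARSA and FARSB summed, the phenylalanine difference was -0.30 (-0.64 to 0.035), an interval that reached 0. FARSB minus FARS2 lay on the other side at 0.095 (-0.27 to 0.46). The subunits themselves differed, with FARSB 0.45 (0.30 to 0.60) above FARSA on the log2 scale. In level, the cytosolic gene was above its mitochondrial counterpart in every pair in siNC, from 1.22-fold for IARS over IARS2 to 63.3-fold for FARSA over FARS2, per length.

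**Figure D3:**
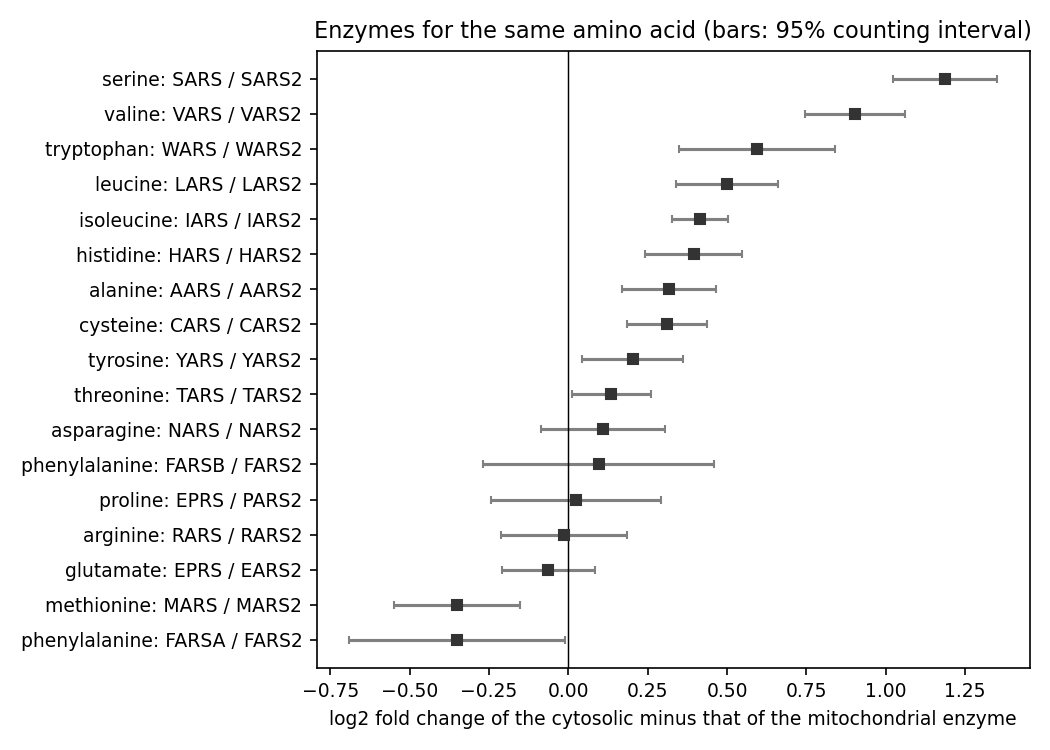
Difference between the log2 fold changes of the cytosolic and the mitochondrial enzyme of the same amino acid, with bars for the 95% counting interval. Points to the right of 0 had the larger log2 fold change in the cytosolic enzyme, which was so for 13 of 17 pairs, with serine at 1.19 and valine at 0.90 farthest out and methionine at -0.35 on the other side.

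Among the cytosolic enzymes, the median differed between members of the multi-synthetase complex and the others. The 8 complex members (EPRS, LARS, IARS, MARS, QARS, KARS, RARS and DARS) had a median of -0.0014, with 4 higher and 4 lower. The 12 others had a median of 0.24, with 11 higher and FARSA lower. In the members' read range 47.0% of genes were above 0 and 53.0% below. The ranges overlapped, from -0.27 to 0.27 and from -0.060 to 0.49. With total-count scaling the medians were 0.081 and 0.33, and EPRS, RARS and FARSA were then above 0. Whether membership plays a part was not tested. Of the scaffold proteins that hold the complex together, AIMP1 had 750 and 740 reads (0.19, 0.042 to 0.34), AIMP2 had 926 and 899 (0.17, 0.033 to 0.30), and EEF1E1 had 351 and 274 (-0.15, -0.38 to 0.084). Enzymes are also split by fold into class I and class II, which attach the amino acid to different hydroxyls of the last nucleotide of the tRNA. Cytosolic class I and class II genes had medians of 0.18 and 0.20, and mitochondrial ones -0.074 and 0.0084.

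The 12 cytosolic genes listed as ATF4-responsive from general knowledge had a median of 0.21, with 11 higher and EPRS lower. In the members' read range 47.0% of genes were above 0 and 53.0% below. The 8 others had a median of 0.061, with 4 higher and 4 lower, and held both the highest value of the cytosolic genes, HARS, and the lowest, DARS. ATF4 mRNA had 10082 and 10088 reads (0.21, 0.17 to 0.25). The list was written with results on ATF4 targets in these libraries known, so its direction is a description.

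**Figure D4:**
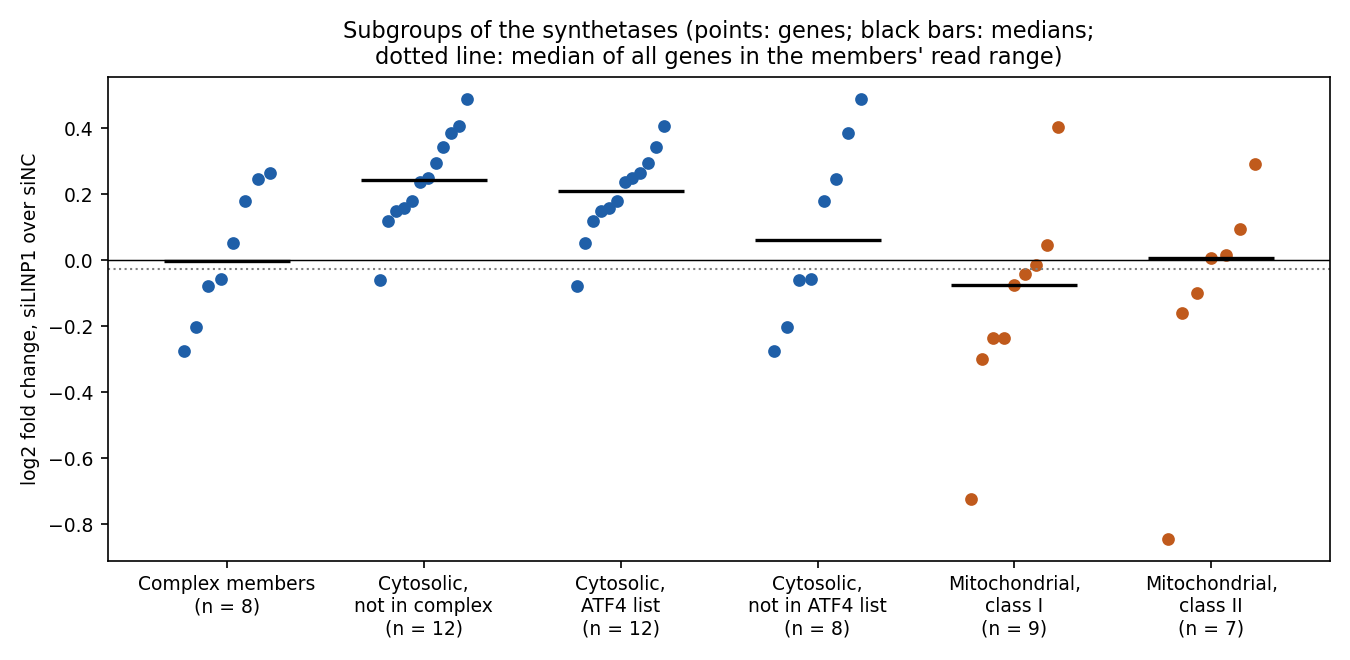
Log2 fold change of each gene (points) by subgroup, with black bars for medians and a dotted line for the median of all genes in the members' read range (-0.025). Cytosolic genes appear in the first 2 columns split by the multi-synthetase complex and again in the next 2 split by the ATF4 list. The 12 genes outside the complex have a median of 0.24 and the 8 complex members one of -0.0014, and of the 4 cytosolic columns the 8 genes outside the ATF4 list spread widest, from -0.27 to 0.49.

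The promoter sequences of the family were searched for TGATGNAA on both strands, the composite element at which ATF4 pairs with a C/EBP factor. The windows were those of RefSeq on GRCh38.p14, from 250 bases before to 50 after each annotated start, and 30 of the 36 genes had at least 1 window. A match was found for 7 of 16 cytosolic genes (43.8%) and 1 of 14 mitochondrial genes (7.14%), beside 4.46% of the 27305 genes with a window and 3.62% of all 35116 windows. All 7 cytosolic genes were on the ATF4 list, of whose members 10 had a window. The matched stretches are shown because the share with a match was higher among cytosolic than among mitochondrial genes. Each is written in the direction of the gene, with the element in capitals, and in 6 of the 8 the element stands as its reverse complement.
AARS (chr16:70289660-70289719, minus strand): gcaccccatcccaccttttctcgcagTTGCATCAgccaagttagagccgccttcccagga
CARS (chr11:3057394-3057453, minus strand): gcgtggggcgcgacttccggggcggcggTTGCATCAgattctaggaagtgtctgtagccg
GARS (chr7:30594819-30594878, plus strand): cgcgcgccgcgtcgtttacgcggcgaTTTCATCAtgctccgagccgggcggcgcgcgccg
IARS (chr9:92293677-92293736, minus strand): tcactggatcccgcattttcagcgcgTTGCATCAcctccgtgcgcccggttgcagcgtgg
MARS (chr12:57488038-57488097, plus strand): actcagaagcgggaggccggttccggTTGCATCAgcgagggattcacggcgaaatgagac
NARS (chr18:57621807-57621866, minus strand): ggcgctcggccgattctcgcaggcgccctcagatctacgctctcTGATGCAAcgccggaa
TARS (chr5:33440935-33440994, plus strand): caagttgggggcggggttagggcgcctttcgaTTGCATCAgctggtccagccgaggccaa
YARS2 (chr12:32756061-32756120, minus strand): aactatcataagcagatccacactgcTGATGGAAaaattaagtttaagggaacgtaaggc

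In 6 of the 7 cytosolic genes the element lay close to the annotated start. Its first base was 33 bases before the start in GARS, 13 in IARS, 4 in MARS and 2 in CARS, and it began at base 3 of the transcript in TARS and base 15 in NARS. In AARS it began 187 bases before the start, and in YARS2 197 bases before. AARS, CARS, IARS, MARS, NARS and TARS share the same 8 letters, read on one strand or the other, whereas GARS and YARS2 each differ from these at the variable base.

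Of the cytosolic genes, DARS, LARS, VARS and YARS had no window. Among the 16 with one, a match did not order the genes by fold change. Those with a match had a median log2 fold change of 0.16, from 0.054 for MARS to 0.41 for GARS. All were higher in siLINP1, beside 47.0% of genes in the members' read range. The 9 cytosolic genes with a window and no match had a median of 0.25, from -0.20 for QARS to 0.49 for HARS. A match names letters in a window and not a bound site, and binding was not measured in these libraries.

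Several members share ground with a neighbour, and the strand setting of the counting is not given in the sources used here, so reads in shared exons may be assigned to either gene or to none. In the GRCh37 coordinates of the table, 7 members overlapped a gene with at least 100 reads, each time on the opposite strand. HARS and HARS2 lie head to head on chromosome 5, HARS from 140053489 to 140071312 and HARS2 from 140071011 to 140078903, and their spans share 302 bases. In the RefSeq windows their first transcribed bases stand 85 bases apart, with 84 bases between them. This sequence is shown, on the plus strand, because the log2 fold changes of the 2 genes on either side differed by 0.39 (0.24 to 0.55).
HARS-HARS2 (chr5:140691371-140691454, GRCh38.p14): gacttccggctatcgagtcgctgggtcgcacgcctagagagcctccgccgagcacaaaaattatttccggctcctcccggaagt

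On the HARS side of this stretch the log2 fold change was 0.49 (0.39 to 0.59), and on the HARS2 side 0.095 (-0.025 to 0.22). SARS2, on chromosome 19 from 39405904 to 39421536, overlaps MRPS12 by 189 bases at its 5′ end. MRPS12 encodes a protein of the mitochondrial ribosome and was also lower, with 1645 and 1080 reads (-0.40, -0.51 to -0.29), and SARS2 lay 0.45 (0.26 to 0.64) below it. MARS, on chromosome 12 from 57881736 to 57910438, shares its last 68 bases with the end of DDIT3, which encodes CHOP. DDIT3 had 1965 and 3558 reads (1.07, 0.99 to 1.15), whereas MARS was at 0.054. YARS shared 591 bases with S100PBP, which had 765 and 616 reads (-0.10, -0.26 to 0.052). GARS shared 75 bases with a gene of 395 and 353 reads, and WARS2 shared 277 bases with one of 284 and 232. How far shared reads enter any of these values was not tested. The 6 rows named as pseudogenes of members held 2 reads in siNC and 0 in siLINP1 together.

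The other genes of tRNA charging did not move as a block. The 18 partner genes, scaffold proteins and ATF4 included, had a median of -0.056, with 7 intervals above 0, 5 below and 6 across it. No share of intervals was computed for the partners' own range of reads. Among genes read as deeply as the cytosolic members 32.4% had one above 0. Among those read as deeply as the mitochondrial members 33.7% had one below. Past 1.2-fold, 3 partner genes were higher and 4 lower, beside the 21.8% and 24.2% given above, and none was past 1.5-fold. Those shares are for the members' read range, and PSTK and TARSL2 lie below that range and ATF4 above it. TRNT1, which adds the CCA end that synthetases charge, had 419 and 487 reads (0.43, 0.24 to 0.62). XPOT, the exporter of tRNA from the nucleus, had 3870 and 3883 (0.21, 0.15 to 0.28). SEPSECS, the last enzyme of selenocysteine synthesis on its tRNA, had 311 and 357 (0.41, 0.19 to 0.63), and PSTK, which acts before it, had only 53 and 31 (-0.56, -1.25 to 0.10).

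Mitochondria have no glutaminyl enzyme of their own and form that tRNA by amidation of a glutamyl-tRNA. The 3 subunits of the amidotransferase had log2 fold changes below 0, as did 53.0% of genes in the members' read range. GATB had 350 and 210 reads (-0.53, -0.78 to -0.28), and GATC had 1293 and 981 (-0.19, -0.31 to -0.068). QRSL1 had 345 and 287 (-0.056, -0.29 to 0.17). Its interval spans 0, and its value is smaller in size than the 0.082 by which total-count scaling shifts every gene upward. MTFMT, which formylates the mitochondrial initiator, had 346 and 288 reads (-0.055, -0.29 to 0.17).

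Of the genes that proofread charged tRNAs, AARSD1 had 736 and 792 reads (0.32, 0.17 to 0.46), but a readthrough gene of the table covers it. DTD1 had 1042 and 806 reads (-0.16, -0.30 to -0.027) and DTD2 had 172 and 116 (-0.36, -0.71 to -0.011). TARSL2, a second gene for a cytosolic threonyl enzyme, had 155 and 105 reads (-0.35, -0.72 to 0.014), on the other side of 0 from TARS. EIF2AK4, which encodes GCN2, the eIF2α kinase that senses uncharged tRNA, had 3243 and 2482 reads (-0.18, -0.25 to -0.10).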

How the data were processed

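Total RNA of HSC-1 cells was sequenced by the authors, aligned to GRCh37/hg19 with Tophat2 and assigned to genes with HTSeq. The submitters' processing notes also name HISAT2 and Bowtie2. Versions, annotation, counting mode and strand setting are not given in the sources used here. The authors deposited raw read counts per gene and RPKM, which equals the count divided by gene length and library total. A further 12 per-sample columns, tied to no sample here, were not used.

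Size factors were medians of ratios over all genes read in both libraries. Genes with fewer than 10 reads in all were left out of the main shares over genes, but not of the size factors. The log2 fold change has no pseudocount. Its interval (95%, Clopper-Pearson) treats the reads of a gene as binomial between libraries. Differences between genes have a normal interval of the log odds ratio. With 1 library per condition no test was made. Levels carry exact Poisson intervals.

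The members and gene lists were chosen with earlier results of these data known. All 36 members and a list of partner genes were named by rule, and MRPS12, DDIT3 and S100PBP because they overlap members. Alternatives were total-count scaling, edgeR TMM factors, size factors from other genes, pseudocounts of 1 and 5, minimums of 1, 100 and 1000 reads, and removal of trends with gene length and, added after the data were seen, GC content (lowess, fraction 0.3, genes with at least 100 reads). Promoter windows came from RefSeq. A planned comparison of protein sequences was not made, and 1 partner gene is counted but not reported here. Scripts were first tested on simulated counts with known folds. Software was edgeR 4.0.16 in R 4.3.3, for TMM only, and Python 3.11.15 with scipy 1.17.1, numpy 2.4.6, statsmodels 0.14.6, pandas 2.3.3 and, for figures, matplotlib 3.10.9.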

Additional observations from a re-analysis of the deposited data

How the results depend on the processing

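The cytosolic median stayed above 0 and above the mitochondrial median under each scaling, pseudocount, trend removal and change of list tried, from 0.15 to 0.26. The mitochondrial median ran from -0.058 to 0.024, above 0 with total-count scaling only. Without SARS2 and VARS2 the log2 ratio of cytosolic to mitochondrial reads was 0.23 in place of 0.31. The count of cytosolic genes more than 1.2-fold lower was 1, for DARS, and it was 0 with total-count scaling, with TMM scaling, and with size factors from protein-coding genes or from genes with at least 1000 reads. The sign turned for EPRS (0.0053) and FARSA (0.022) with total-count scaling, and for FARSA also with the trend of gene length (0.0065) or GC content (0.095) removed. Total-count scaling shifted every gene by 0.082 on the log2 scale. Of the 36 genes, it put 16 others outside their counting interval, and it also turned the sign of RARS, CARS2, EARS2 and RARS2, whose intervals spanned 0. EARS2 also turned with TMM (0.013) and with size factors from protein-coding genes (0.017) or from genes with at least 1000 reads (0.023), and with the GC trend removed CARS2 was at 0.00025 and NARS2 at -0.068. The GC trend put 9 others outside it and the length trend 3, and the remaining scalings and both pseudocounts none. Whether an interval clears 0 still hangs on the scaling for EPRS, FARSA, AARS2 and HARS2, and for the partner genes DTD1 and DTD2. The bound of each that lies nearest 0 is smaller in size than the TMM shift of 0.027. The share of all genes past 1.5-fold depends on depth, from 23.9% higher and 21.9% lower with at least 1 read to 5.47% and 3.56% with at least 1000 reads. No paired analysis was possible because each condition had 1 library, and for the same reason no replicate could be left out. Depth limits FARS2, PARS2, WARS2 and MARS2 most, with 284, 468, 586 and 888 reads over both libraries.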
